A study of Mus musculus with 8 samples.

Results

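The antimicrobial and acute-phase genes described here are 10 genes chosen by symbol: Lcn2, Ltf, S100a8, S100a9, Lyz2, Camp, Saa3, Hp, Ptx3 and Slpi. All 10 were measured among 18193 genes, through 11 of the 45101 probe sets of an Affymetrix mouse array. Each gene is represented by whichever of its probe sets averaged highest across all 8 arrays. Only Ptx3 has several such probe sets, and its other one is reported as a check.

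The cells were macrophages grown from mouse bone marrow for 7 to 10 days in macrophage colony-stimulating factor at 10 ng/mL. The kinase Tpl2, the product of Map3k8, couples toll-like receptor signals to MEK and ERK. The 4 groups of 2 arrays were Tpl2-deficient (KO) macrophages treated with LPS, wild-type (WT) macrophages treated with LPS, unstimulated KO macrophages and unstimulated WT macrophages. LPS, a component of the Escherichia coli outer membrane, was used at 1 μg/mL, and the labels give these arrays no treatment time. They also give no mouse strain, age or deletion site. The titles number biological replicates but name no animals, so the p-values reflect the spread among these arrays, which may in part be technical.

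Macrophages, neutrophils and epithelia make these proteins as part of innate defence. Some withhold iron, zinc or manganese from bacteria, some attack the bacterial envelope, and the acute-phase proteins and pentraxins bind lipids, haemoglobin or microbial surfaces. In mouse macrophages, Lcn2 is a known target of NF-kB together with its nuclear cofactor Nfkbiz and of C/EBP factors, and several of the others are known to respond to LPS or to the cytokines it induces.

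Values are log2 RMA signals, so 1 unit is a doubling. Array medians lay between 6.48 and 6.53, and the file holds no detection calls, so expression above background cannot be read from it. Where the lower group mean lay under its array medians, a fold is therefore written as "at least". Probe sets differ in affinity, so each gene is compared between samples and with the array median, and not with another gene. Arrays of a group correlated at r = 0.997 in 3 groups and at r = 0.994 in LPS-treated KO cells, where the median SD between arrays was 0.129 against 0.0649 to 0.0662 elsewhere. The tests (limma over all genes, two-sided, Benjamini-Hochberg adjusted p under 0.05) assume 1 spread per gene, so errors for the LPS-treated KO group may be too small. Map3k8 read 9.83 and 10.09 in KO against 11.01 and 10.91 in WT cells with LPS, and 8.32 and 8.23 in KO against 9.27 and 9.28 in WT cells at rest. It was 2.00-fold lower in KO cells in both settings (adjusted p = 0.000125 with LPS and 0.00237 at rest, limma). Whether its probes lie in the deleted part was not tested.

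The cells carried the signals of macrophages. Of 14 macrophage markers other than Lyz2, 13 lay above the array median on all 8 arrays and 1, the haemoglobin scavenger receptor Cd163, lay under it on all 8. Of 14 neutrophil markers, 9 lay under the median on all 8 arrays, among them Mpo, Prtn3, Ctsg, Ngp and Cxcr2. Csf3r, the G-CSF receptor that macrophages carry too, and Mmp8, a collagenase, were above it on all 8. Mmp9 and Fcnb were above it on 7 arrays each, including all LPS arrays, and Elane on 3. The neutrophil genes Ly6g, Retnlg, Stfa1 and Stfa2 were also listed but had no value here. Of 5 epithelial markers, 3 lay under the median on all 8 arrays and Epcam above it. These are bulk samples, in which fewer cells of a type and less RNA per cell cannot be told apart.

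**Figure D1:**
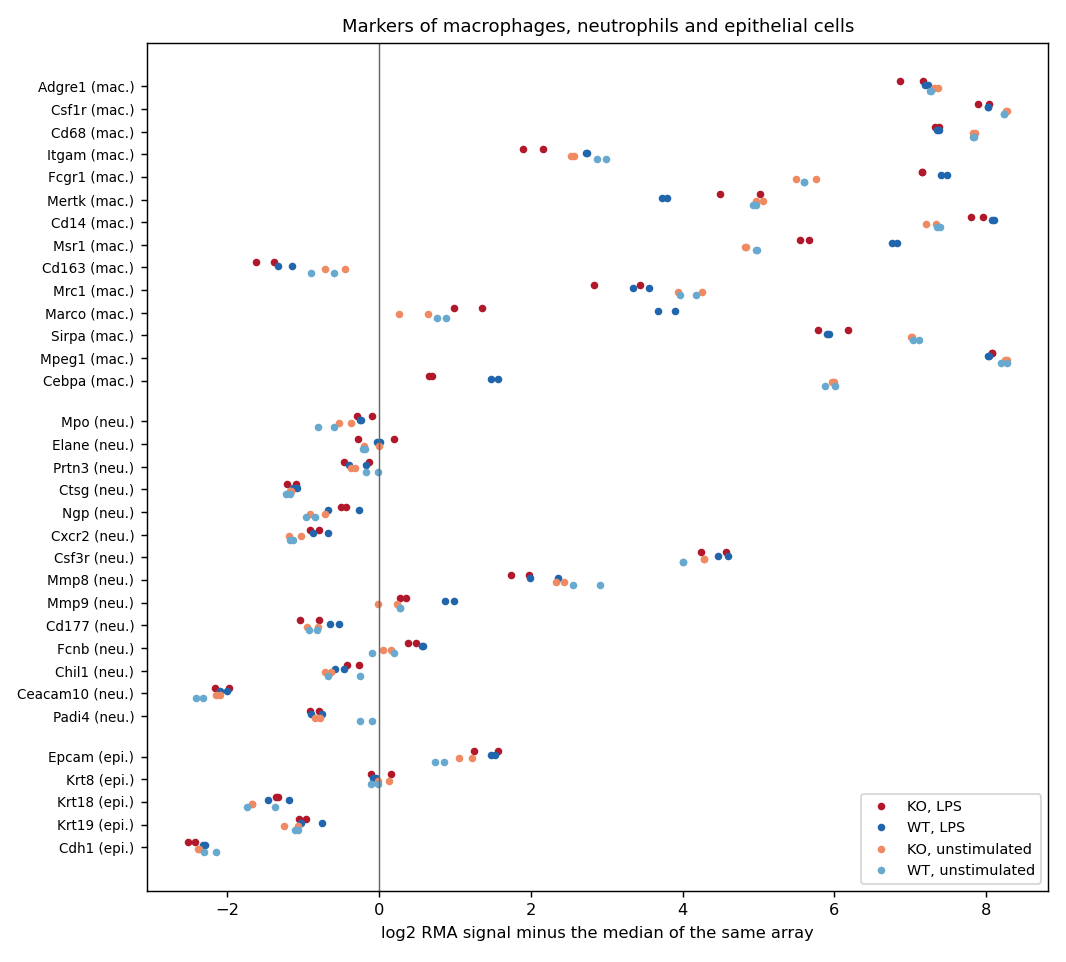
Signal of macrophage (mac.), neutrophil (neu.) and epithelial (epi.) markers as log2 RMA signal minus the median of the same array, with a point for each of the 8 arrays. Most macrophage markers lie right of 0, and 9 of 14 neutrophil markers lie left of 0 on every array.

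Without LPS, the 10 genes differed in where they stood relative to the array median. Lyz2 lay 8.59 and 8.62 above it in unstimulated KO cells and 8.58 and 8.64 above it in unstimulated WT cells. Saa3, Slpi, S100a8 and Hp were above the median on all 8 arrays. Camp was within 0.18 of it at rest and on all 4 LPS arrays at least 1.00 above it. Lcn2 and Ptx3 were under it on all 4 unstimulated arrays and above it on all 4 LPS arrays. Ltf and S100a9 were under the median on all 8 arrays, so expression of these 2 genes was not shown in any group.

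**Figure D2:**
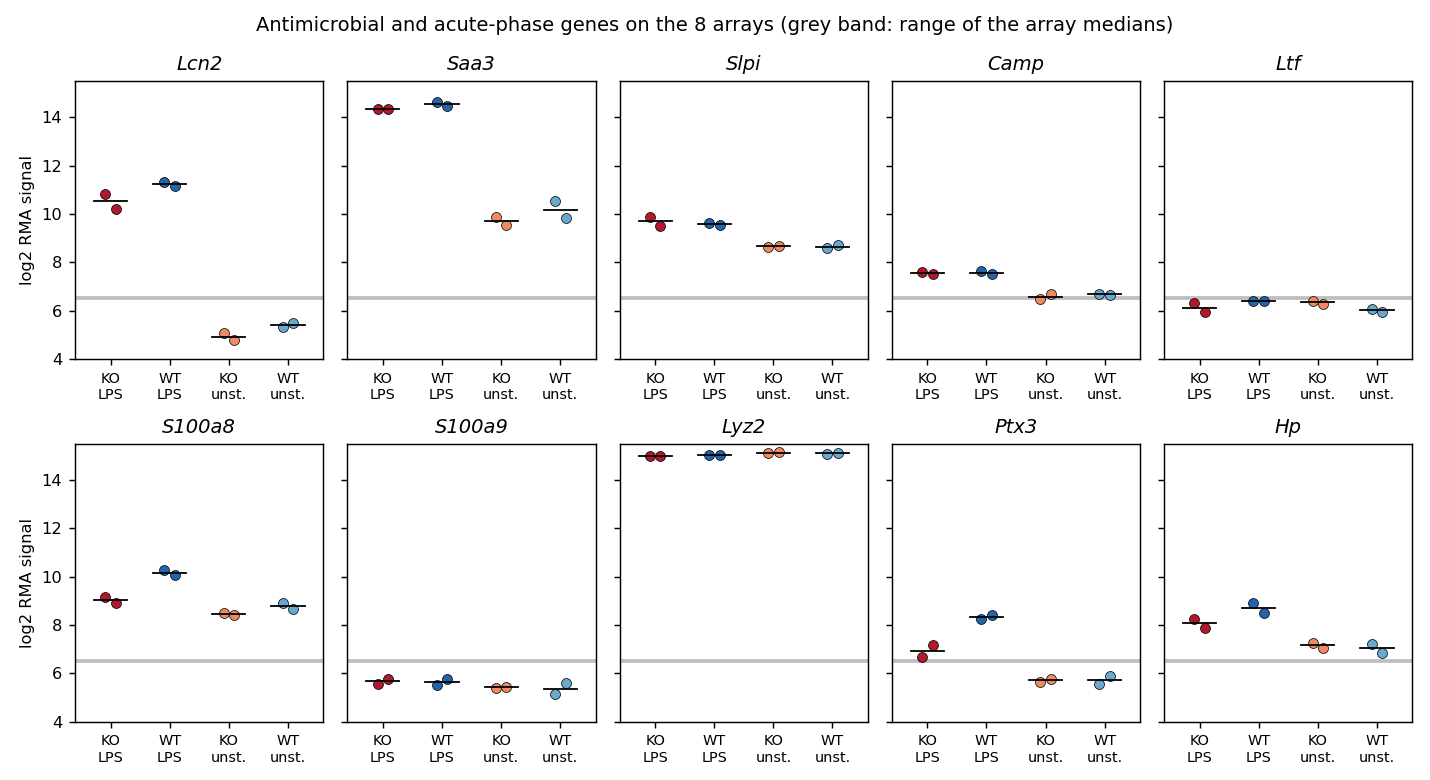
Log2 RMA signal of each gene on each array (points) and the mean of the 2 arrays of a group (line), for LPS-treated KO, LPS-treated WT, unstimulated (unst.) KO and unstimulated WT macrophages. Lcn2 and Saa3 show the widest separation between LPS and unstimulated arrays, Ptx3 and S100a8 stand lower in KO than in WT cells with LPS, and Ltf, S100a9 and Lyz2 vary by at most 0.65 over the 8 arrays.

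The start regions of 4 of these genes are shown because their signals carry the differences described next: Lcn2 and Saa3 had the largest LPS rises of the group in both genotypes, and Ptx3 and S100a8 responded less to LPS in KO cells. Each runs 5′ to 3′ from 250 bases before to 50 bases after a gene start, from RefSeq on GRCm38.p6. Lcn2 is from chr2:32387690-32387989 (minus strand), Saa3 from chr7:46715627-46715926 (minus strand), Ptx3 from chr3:66219637-66219936 (plus strand) and S100a8 from chr3:90668821-90669120 (plus strand). The Saa3 window lies inside the gene record, which reaches further upstream. Capitals mark matches on either strand to the kappa-B pattern (GGG, any 5 bases, CC) or the C/EBP pattern TTNNGNAA.
Lcn2: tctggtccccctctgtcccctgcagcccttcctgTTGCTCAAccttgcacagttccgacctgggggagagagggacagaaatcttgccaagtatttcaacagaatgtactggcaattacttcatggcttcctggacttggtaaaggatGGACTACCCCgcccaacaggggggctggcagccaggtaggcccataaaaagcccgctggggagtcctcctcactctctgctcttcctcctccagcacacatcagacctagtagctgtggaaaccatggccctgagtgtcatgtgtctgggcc
Saa3: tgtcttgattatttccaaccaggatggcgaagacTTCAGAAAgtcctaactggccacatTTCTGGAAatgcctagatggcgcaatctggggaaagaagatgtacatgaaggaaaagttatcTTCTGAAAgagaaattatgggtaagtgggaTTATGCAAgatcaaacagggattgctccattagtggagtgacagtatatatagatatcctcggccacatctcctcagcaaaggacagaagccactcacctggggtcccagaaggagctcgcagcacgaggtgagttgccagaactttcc
Ptx3: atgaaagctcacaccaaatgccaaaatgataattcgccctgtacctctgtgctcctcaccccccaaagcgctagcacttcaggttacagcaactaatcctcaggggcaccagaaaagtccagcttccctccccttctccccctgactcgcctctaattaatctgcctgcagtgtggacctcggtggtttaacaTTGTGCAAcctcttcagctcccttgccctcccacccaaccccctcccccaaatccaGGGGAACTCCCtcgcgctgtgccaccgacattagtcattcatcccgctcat
S100a8: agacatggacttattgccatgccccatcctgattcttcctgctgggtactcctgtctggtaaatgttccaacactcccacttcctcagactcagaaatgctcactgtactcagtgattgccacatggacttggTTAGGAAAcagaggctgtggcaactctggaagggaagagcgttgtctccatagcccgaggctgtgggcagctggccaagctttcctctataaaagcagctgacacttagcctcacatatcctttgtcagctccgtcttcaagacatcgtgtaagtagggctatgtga

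Lcn2 holds 1 kappa-B match and 1 C/EBP match. Saa3 holds 4 C/EBP matches and 0 kappa-B matches. Ptx3 holds 3 overlapping kappa-B matches in 1 stretch, counting both strands, and 1 C/EBP match, and S100a8 holds 1 C/EBP match. Of the 9 member genes with an entry, 8 hold a C/EBP match and 4 (Lcn2, Camp, Ltf and Ptx3) a kappa-B match, where 40.7% and 50.8% of all 32851 windows do. The AP-1 pattern TGANTCA and the STAT pattern TTCNNNGAA were found in 0 of the 9, against 7.81% and 8.30% of all windows. Such short patterns are frequent, and a match or its absence in this window is a description of letters only.

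LPS raised 7 of the 10 genes in KO macrophages and 8 of 10 in WT macrophages, and lowered none (limma). Over all genes, LPS raised 16.0% and lowered 25.8% in KO cells, and raised 21.3% and lowered 30.9% in WT cells. Both LPS arrays lay above both unstimulated arrays for 8 of the 10 genes in KO cells, against 31.2% of all genes, and for 8 of 10 in WT cells, against 41.1%. The median log2 change of the 10 genes was 0.93 in KO and 1.15 in WT cells, against 0.00 and 0.04 over all genes. Lcn2, Saa3, Slpi, Camp, S100a8, Ptx3 and Hp rose in both genotypes. The LPS changes of the 2 genotypes come from separate arrays, but their tests share 1 spread per gene, estimated from all 8 arrays.

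Lcn2, the lipocalin that binds bacterial siderophores and so withholds iron, had the largest rise of the group. It read 10.82 and 10.22 in KO cells with LPS and 5.06 and 4.79 in unstimulated KO cells. In WT cells it read 11.33 and 11.15 with LPS and 5.31 and 5.48 without. All LPS arrays were far above all unstimulated arrays. The log2 change was 5.60 ± 0.18 (SE) in KO cells (at least 48.4-fold, adjusted p = 7.44e-10, limma) and 5.85 ± 0.18 in WT cells (at least 57.6-fold, adjusted p = 5.14e-10). It stood at rank 24 of the rises over 18193 genes in KO cells and at rank 32 in WT cells.

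Saa3, an acute-phase serum amyloid A that mouse macrophages make outside the liver, already had a clear signal at rest. It read 14.35 and 14.34 in KO cells with LPS against 9.88 and 9.54 without, and 14.62 and 14.47 in WT cells with LPS against 10.53 and 9.84 without. The rise was 4.63 ± 0.19 in KO cells (24.8-fold, adjusted p = 5.55e-09, limma) and 4.36 ± 0.19 in WT cells (20.5-fold, adjusted p = 9.16e-09). The LPS arrays were close to one another, while the unstimulated WT arrays differed by 0.69. With LPS, Saa3 lay near the top of the scale, where 66 genes in KO and 32 in WT cells had a higher mean.

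Hp and Ptx3 make up the rest of the acute-phase and pattern-recognition genes. Hp encodes haptoglobin, which binds free haemoglobin. It read 8.26 and 7.88 in KO cells with LPS against 7.27 and 7.07 without, and 8.93 and 8.48 in WT cells with LPS against 7.22 and 6.86 without. LPS and unstimulated arrays did not overlap in either genotype, and Hp rose 1.87-fold in KO cells (0.90 ± 0.18, adjusted p = 0.00158, limma) and 3.16-fold in WT cells (1.66 ± 0.18, adjusted p = 1.18e-05).

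Ptx3 is a long pentraxin, a secreted protein that binds microbes and complement. It read 6.69 and 7.18 in KO cells with LPS against 5.65 and 5.78 without, and 8.24 and 8.43 in WT cells with LPS against 5.55 and 5.88 without. The rise was 1.22 ± 0.17 in KO cells (at least 2.32-fold, adjusted p = 9.51e-05, limma) and 2.62 ± 0.17 in WT cells (at least 6.14-fold, adjusted p = 1.59e-07). The other Ptx3 probe set stayed between 5.49 and 5.99, under the median of every array, and passed in no comparison. With the probe sets averaged, the Ptx3 rise was 0.68 in KO and 1.47 in WT cells, and both still passed. These averages include the first probe set and are no separate check of it.

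S100a8 and S100a9 encode the subunits of calprotectin, which binds zinc, manganese and calcium. S100a8 read 9.15 and 8.91 in KO cells with LPS against 8.50 and 8.42 without, and 10.27 and 10.07 in WT cells with LPS against 8.93 and 8.65 without. Its LPS rise was 0.57 ± 0.13 in KO cells (1.48-fold, adjusted p = 0.00426, limma) and 1.38 ± 0.13 in WT cells (2.61-fold, adjusted p = 4.21e-06). The KO rise was 0.33 and no longer passed when arrays were centred on their hybridisation spike-ins, which shifts the median of all genes in that comparison to -0.24. The S100a8 probe set is of the _s_at kind, which may cross-hybridise.

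S100a9 read 5.57 and 5.77 in KO cells with LPS against 5.40 and 5.45 without, and 5.54 and 5.77 in WT cells with LPS against 5.13 and 5.61 without. Its LPS changes of 0.24 ± 0.15 in KO and 0.29 ± 0.15 in WT cells did not pass. The S100a9 probe set was under the array median on all 8 arrays, and a difference between the LPS changes of S100a8 and S100a9 was not tested.

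Slpi inhibits serine proteases such as neutrophil elastase, and Camp encodes the precursor of the cathelicidin peptide CRAMP, which disrupts bacterial membranes. Slpi read 9.89 and 9.51 in KO cells with LPS against 8.65 and 8.67 without, and 9.61 and 9.54 in WT cells with LPS against 8.60 and 8.71 without. Camp read 7.58 and 7.51 in KO cells with LPS against 6.48 and 6.69 without, and 7.64 and 7.51 in WT cells with LPS against 6.69 and 6.66 without. Both rose in each genotype. For Slpi the rise was 2.05-fold in KO cells (1.04 ± 0.13, adjusted p = 3.94e-05, limma) and 1.89-fold in WT cells (0.92 ± 0.13, adjusted p = 8.56e-05). For Camp it was 1.95-fold in KO cells (0.96 ± 0.11, adjusted p = 2.06e-05) and 1.87-fold in WT cells (0.90 ± 0.11, adjusted p = 3e-05). The difference of the responses was 0.12 for Slpi (95% interval -0.28 to 0.51) and 0.06 for Camp (-0.28 to 0.40), and neither passed.

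Ltf and Lyz2 changed little. Ltf encodes lactoferrin, the iron-binding protein of neutrophil secondary granules, and read 6.30 and 5.94 in KO cells with LPS against 6.41 and 6.29 without, and 6.38 and 6.42 in WT cells with LPS against 6.07 and 5.96 without. Its change of 0.38 ± 0.13 in WT cells passed (adjusted p = 0.0262, limma), with both groups under the array medians, and the call was lost when any 1 of the 4 WT arrays was left out (0.33 to 0.44). In KO cells it did not pass (-0.23 ± 0.13). Lyz2, the lysozyme of macrophages, which cleaves peptidoglycan, read 14.99 and 15.01 in KO cells with LPS against 15.12 and 15.15 without, and 15.05 and 15.04 in WT cells with LPS against 15.09 and 15.12 without. Its changes of -0.14 ± 0.09 in KO and -0.06 ± 0.09 in WT cells did not pass. With arrays centred on spike-ins, Ltf and Lyz2 passed as lower with LPS in KO cells (-0.47 and -0.38, where the median of all genes is -0.24), and the Ltf change in WT cells (0.23) did not pass. At 15.33 the table has its highest value, so a rise of Lyz2 would have had little room on this scale.

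**Figure D3:**
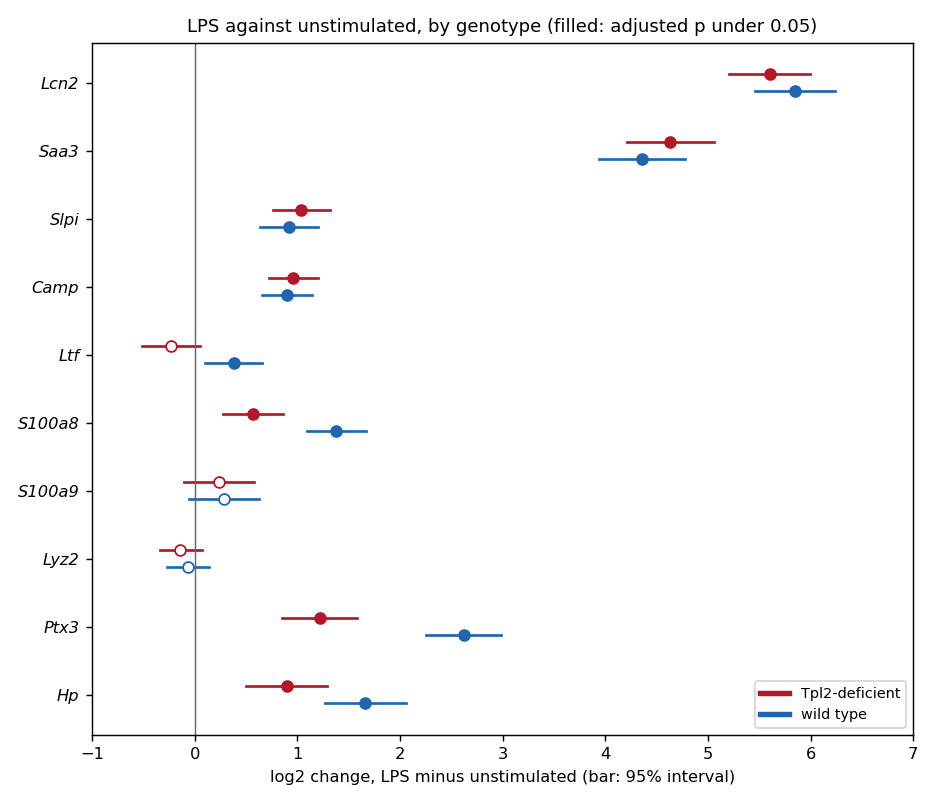
Log2 change with LPS of each gene in KO and WT macrophages (points) with the 95% interval of the limma fit (bars, not adjusted for the number of genes). Filled points passed the adjusted threshold, namely 7 of 10 in KO cells and 8 of 10 in WT cells.

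Under LPS, 4 of the 10 genes were lower in KO than in WT macrophages and 0 were higher, where 5.73% of all genes were lower and 8.01% higher (limma). The median difference of the 10 was -0.24, against 0.02 over all genes. The 4 genes were Ptx3, S100a8, Lcn2 and Hp. Both KO arrays lay below both WT arrays for 7 of the 10 genes, against 19.7% of all genes. Ptx3 averaged 6.93 ± 0.35 in KO and 8.33 ± 0.14 in WT cells (SD, n = 2 each), which is 2.64-fold lower in KO cells (-1.40 ± 0.17 SE, adjusted p = 0.000176, limma). The other Ptx3 probe set, under the median of every array, gave 0.02 (adjusted p = 0.955, limma). With the Ptx3 probe sets averaged the difference was -0.69 and still passed, but that average includes the passing probe set and is no separate check. S100a8 averaged 9.03 ± 0.17 in KO and 10.17 ± 0.15 in WT cells (SD, n = 2 each), 2.21-fold lower (-1.14 ± 0.13, adjusted p = 0.000142, limma). For both genes every KO array lay at least 0.92 below every WT array, and both calls held when any 1 array was left out.

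Lcn2 and Hp differed less between the genotypes. Lcn2 averaged 10.52 ± 0.43 in KO and 11.24 ± 0.13 in WT cells with LPS (SD, n = 2 each; -0.72 ± 0.18, 1.64-fold lower, adjusted p = 0.0204, limma). Its call was lost without LPS-treated KO replicate 2 (-0.42), WT replicate 1 (-0.63) or WT replicate 2 (-0.80). Hp averaged 8.07 ± 0.27 in KO and 8.70 ± 0.31 in WT cells with LPS (SD, n = 2 each; -0.63 ± 0.18, 1.55-fold lower, adjusted p = 0.0386, limma). Its call was lost without LPS-treated KO replicate 2 (-0.44) or WT replicate 1 (-0.41), with array weights (-0.63) and with quantile normalization repeated (-0.64).

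The other 6 genes did not pass between KO and WT cells with LPS. The difference was -0.20 for Saa3 (95% interval -0.63 to 0.22), 0.12 for Slpi (-0.16 to 0.40) and -0.03 for Camp (-0.27 to 0.21). For Lyz2 it was -0.04 (-0.25 to 0.16), for S100a9 0.02 (-0.33 to 0.36) and for Ltf -0.28 (-0.56 to 0.00). These intervals do not show that the genotypes were alike.

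At rest, 0 of the 10 genes passed between KO and WT macrophages, where 0.500% of all genes did (limma). At an unadjusted p under 0.05, 4 of the 10 differed, against 13.4% of all genes. Lcn2 was -0.47 ± 0.18, Saa3 -0.47 ± 0.19 and S100a8 -0.33 ± 0.13, each lower in KO cells, and Ltf was 0.33 ± 0.13 higher, with adjusted p-values between 0.296 and 0.318 (limma). Ptx3 averaged 5.72 in both genotypes, Slpi 8.66 in both, and Hp 7.17 in KO and 7.04 in WT cells.

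The LPS response itself differed between the genotypes for 2 of the 10 genes, both responding less in KO cells, where 2.87% of all genes had a more negative response in KO than in WT cells (limma). Ptx3 rose by 1.40 ± 0.23 less in KO cells (adjusted p = 0.00388). Its other probe set gave -0.16 and did not pass (adjusted p = 0.694, limma). With the probe sets averaged, which includes the passing one, the difference of responses was -0.78 and still passed. S100a8 rose by 0.81 ± 0.19 less (adjusted p = 0.0213), and this call was lost without WT LPS replicate 1 (-0.71), WT unstimulated replicate 2 (-0.67), KO unstimulated replicate 1 (-0.77) or KO unstimulated replicate 2 (-0.85). Hp missed the threshold (-0.76 ± 0.25, adjusted p = 0.0938). So did Lcn2 (-0.25 ± 0.25) and Saa3 (0.27 ± 0.27), whose 95% intervals ran from -0.80 to 0.30 and from -0.33 to 0.87. The unstimulated level of Ptx3 lies under the array medians in both genotypes, so its value here is no bound in either direction.

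**Figure D4:**
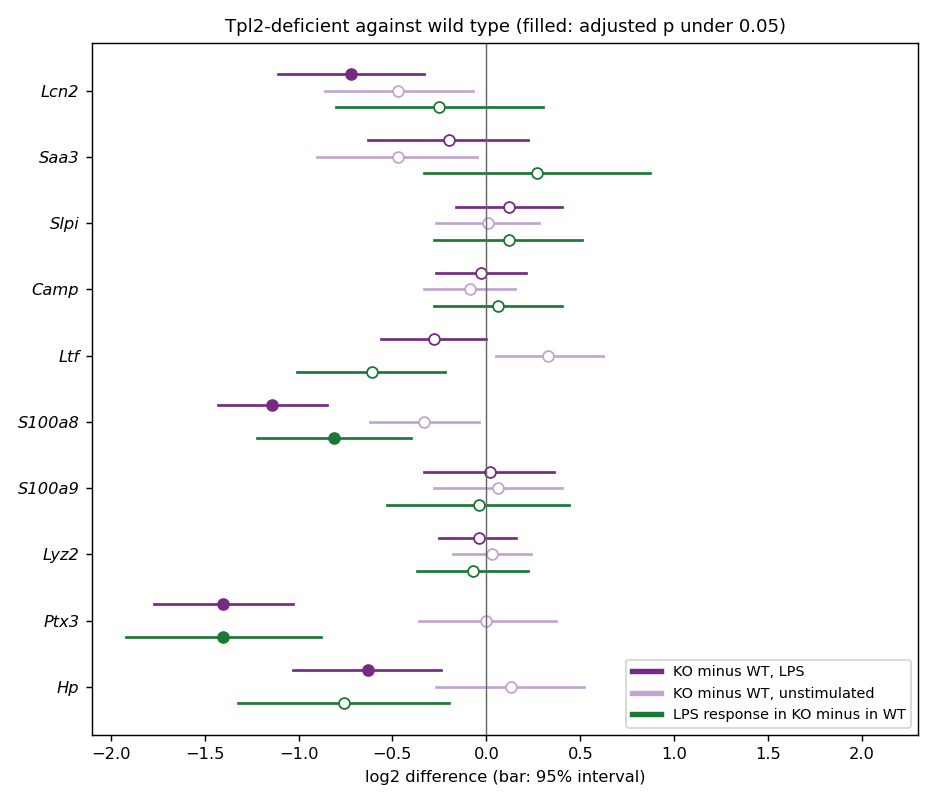
Log2 difference of each gene between KO and WT macrophages with LPS, between KO and WT macrophages at rest, and of the LPS response in KO minus that in WT cells (points), with the 95% interval of the limma fit (bars, not adjusted for the number of genes). Filled points passed the adjusted threshold: Lcn2, S100a8, Ptx3 and Hp with LPS, none at rest, and S100a8 and Ptx3 for the difference of responses.

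In the order of group means, Lcn2, S100a8, Ptx3 and Hp were highest in WT cells with LPS and next in KO cells with LPS. The LPS-treated KO arrays lay above all 4 unstimulated arrays for Lcn2, Ptx3 and Hp. For S100a8 they overlapped the unstimulated WT arrays, with a lowest LPS-treated KO value of 8.91 and a highest unstimulated WT value of 8.93. For Saa3, Slpi and Camp, the LPS-treated KO arrays also lay above all unstimulated arrays, with no difference past the threshold between genotypes with LPS or at rest. For Ltf, S100a9 and Lyz2 the means of the 4 groups lay within 0.38 of each other.

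Signs of other cells and of RNA quality were read beside these results. Neutrophil markers other than the 10 genes rose in 0 of 14 cases and fell in 1 with LPS in KO cells, where 16.0% of all genes rose and 25.8% fell. In WT cells 7 of the 14 rose and 2 fell, where 21.3% and 30.9% of all genes did. The list medians were 0.07 in KO and 0.31 in WT cells, against 0.00 and 0.04 over all genes. The mean log2 level of the neutrophil list on an array was 6.44 to 6.54 in KO and 6.58 to 6.63 in WT cells with LPS, and 6.40 to 6.44 in both genotypes at rest. Between unstimulated KO and WT cells, 1 of these 14 was lower and 0 were higher, where 0.500% of all genes passed. That gene, Padi4, was under the median of every array (-0.60 ± 0.11, adjusted p = 0.0481, limma). Of the 14 macrophage markers, 1 was higher and 4 were lower in KO than in WT cells with LPS, where 8.01% and 5.73% of all genes were. Among the lower was Marco, a scavenger receptor (-2.62 ± 0.15, adjusted p = 9.4e-07, limma). The mean level of that list was 11.24 to 11.39 in KO and 11.70 to 11.72 in WT cells with LPS, and 11.81 to 11.82 in KO and 11.79 to 11.85 in WT cells at rest. The 3′ to 5′ signal difference of Actb was 0.610 to 0.683 in KO and 0.462 to 0.551 in WT cells with LPS, and 0.865 to 0.904 in KO and 0.670 to 0.813 in WT cells at rest. The part of these in the differences of Ptx3, S100a8, Lcn2 and Hp was not tested.

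Other genes of known roles were counted against all genes, of which LPS raised 16.0% and lowered 25.8% in KO cells and raised 21.3% and lowered 30.9% in WT cells, and of which 8.01% were higher and 5.73% lower in KO than in WT cells with LPS. Of 21 other acute-phase genes, LPS raised 9 and lowered 0 in KO cells and raised 8 and lowered 0 in WT cells, with list medians of 0.19 and 0.22 against 0.00 and 0.04 over all genes. Cp, the copper-carrying ferroxidase ceruloplasmin, rose 25.5-fold in KO and 33.1-fold in WT cells (adjusted p = 1.19e-09 and 6.39e-10, limma). Cfb, the complement factor B of the alternative pathway, rose at least 28.9-fold and at least 24.5-fold. In KO against WT cells with LPS, 1 of the 21 was higher and 0 were lower, with a median of 0.05 against 0.02. Between unstimulated KO and WT cells, 0 of the 21 passed, where 0.500% of all genes did.

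Of 28 other antimicrobial genes, 8 rose and 2 fell with LPS in KO cells, and 10 rose and 4 fell in WT cells, with list medians of 0.07 and 0.19 against 0.00 and 0.04 over all genes. Acod1, which makes itaconate, rose 32.6-fold in KO and 32.7-fold in WT cells (adjusted p = 1.78e-10 and 1.64e-10, limma). With LPS, 1 of the 28 was higher and 4 were lower in KO than in WT cells (median -0.04 against 0.02), among them Wfdc21, a whey acidic protein family member, which averaged 6.02 in KO and 7.61 in WT cells (at least 3.01-fold lower, adjusted p = 2.86e-06). Between unstimulated KO and WT cells, 1 of the 28 was higher and 0 were lower, where 0.500% of all genes passed. That gene was Gbp2, which averaged 9.87 in KO and 9.08 in WT cells (1.74-fold higher, adjusted p = 0.00656, limma).

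Of 20 regulators and upstream cytokines, 14 rose and 3 fell with LPS in KO cells, and 16 rose and 3 fell in WT cells, with list medians of 1.21 and 1.77 against 0.00 and 0.04. Between KO and WT cells with LPS, 3 were higher and 9 lower, with a median of -0.16 against 0.02 over all genes. Cebpd, a C/EBP factor of the acute-phase response, averaged 10.63 in KO and 13.21 in WT cells and was 5.98-fold lower (adjusted p = 1.35e-07, limma). The cytokines Il1a and Il1b were 12.4-fold and 6.78-fold lower in KO cells, and Ifnb1, interferon beta, was 5.95-fold higher. LPS raised the cytokine Il6 at least 1090-fold in KO and at least 987-fold in WT cells. Cebpa, another C/EBP factor, instead fell with LPS, 40.1-fold in KO and 21.4-fold in WT cells. At rest, 0 of the 20 passed, where 0.500% of all genes did.

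For the 8 genes that passed in at least 1 comparison, which leaves out S100a9 and Lyz2, the genes with the most similar pattern were sought among 3862 genes above the median level with a range of at least 1 over the 8 arrays. Since the arrays fall into LPS and unstimulated sets, Pearson's r over them mostly follows that split and is given as a description only. Closest to Lcn2 were Elp5, Socs3 and Gch1 (r = 0.998 to 0.999), and closest to Saa3 were Src, Gch1 and Cgas (r = 0.998). Closest to Ptx3 were Zfp281, Mcoln2 and Irak3 (r = 0.994 to 0.997), and closest to S100a8 were Traf3ip2, Phlda1 and Bst1 (r = 0.983 to 0.987). The LPS change of Irak3, an inhibitor of toll-like receptor signalling, was 1.03 in KO and 2.43 in WT cells. For Hp the closest were Pilrb1, Fcgr4 and Stard5 (r = 0.977 to 0.980), for Slpi Mkks, Wtap and Psma3 (r = 0.998 to 0.999) and for Camp Notch2, Pgap2 and Pdcd10 (r = 0.994 to 0.995). None of the 3862 genes searched came near Ltf, the nearest being Arg2 at r = 0.767. Ltf itself was under the array medians with a range of 0.48, so genes of its level and range were not searched.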

How the data were processed

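RNA of 8 macrophage samples was labelled with biotin and hybridised to Affymetrix arrays. The deposited values are log2 signals per probe set. Per the submitters' processing notes, GCOS and RMA were used; no versions are given. They run from 2.67 to 15.33 and were used as deposited. Arrays have no read depth, and 2 arrays per group limit the precision.

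Of 45101 probe sets, 34945 list exactly 1 symbol and are no controls, 932 list several and 9211 none. Symbols of 34741 were found in the RefSeq table of GRCm38.p6, and 0 changed. The linear models (limma 3.58.1, R 4.3.3) took all 8 arrays, with 4 group means, 4 residual and 6.87 prior degrees of freedom, for 5 comparisons. The procedure was tested on simulated data with equal spread in all groups. That test does not cover the wider spread of the LPS-treated KO arrays. Alternatives covered probe set choice, scaling, low values, variance model, the samples fitted, the replicate number as a block, and fits without 1 array.

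The 10 genes, the other gene lists and the tests were chosen with earlier results of these data known. All 10 genes were named. From the other lists, genes were named from up to 4 with the largest changes past the threshold with no overlap between groups, and 3 most similar genes were sought for each of the 8 genes past the threshold in a comparison. Writing "at least" for levels under the array median was chosen after the values were seen. The labels do not say whether same-numbered samples of different groups were paired. Deviations of same-numbered arrays correlated between groups at -0.120 to 0.100, which cannot decide it. GRCm38.p6 start-region sequences were found for 9 of the 10 genes.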

Additional observations from a re-analysis of the deposited data

Results flagged for a closer look

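The test of the difference between the LPS responses of the genotypes passed for 2 of the 10 genes (limma, adjusted over all genes). Ptx3 rose less with LPS in KO than in WT macrophages, by -1.40 on the log2 scale, and the LPS-treated KO arrays lay below the LPS-treated WT arrays by 1.06 or more. The other Ptx3 probe set, under the median of every array, gave -0.16 and did not pass. S100a8 rose less in KO macrophages as well, by -0.81, a call that rests on all 4 groups and was lost in 4 of the 8 fits without 1 array. Samples standing apart within a group could not be examined with 2 arrays a group.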

How the results depend on the processing

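Of 880 recomputed log2 changes of the 10 genes, 822 kept their direction and their side of the threshold, 20 lost and 9 gained a call, and 29 changed sign. Part of this agreement was fixed in advance. The variance trend and the replicate block leave a log2 change as it was, and averaging probe sets can alter only that of Ptx3. Leaving out an array alters only comparisons that use its group. The count of 822 therefore overstates how far direction was tested. The sign changes were in values that did not pass, apart from the other Ptx3 probe set, which gave 0.02 between KO and WT cells with LPS. Averaging both probe sets gave Ptx3 0.68 with LPS in KO and 1.47 in WT cells, -0.69 between genotypes with LPS and -0.78 for the difference of responses. Centring on array medians gave -0.03 for Slpi, -0.01 for Lyz2 and -0.03 for Ptx3 at rest. Centring on spike-ins gave Camp 0.00 between genotypes with LPS, 0.03 at rest and -0.03 for the difference of responses; it shifted the median of all genes to -0.24 with LPS in KO cells, -0.11 with LPS in WT cells and 0.12 at rest, and left 983 genes called for the difference of responses. Repeated quantile normalization gave -0.05 for Ptx3 at rest and 0.02 for the S100a9 difference of responses.

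Without _x_at and _s_at probe sets, which drops S100a8, 1 of the 10 genes was called for the difference of responses. Among genes above the median level, which leaves 6 of the 10 and drops Ptx3, 5 of 6 were called with LPS in WT cells and 1 of 6 for the difference of responses. With a 2-fold minimum, 4 were called with LPS in KO cells, 5 in WT cells, 2 between genotypes with LPS and 1 for the difference of responses, and over all genes 2631, 3110, 462 and 461, with 26 at rest. Genes called at rest numbered 140 with a variance trend, 531 with array weights and 48 from the 4 arrays alone, and array weights left 1580 between genotypes with LPS. The cause of these shifts was not tested, beyond fewer genes or samples where stated.

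Leaving out 1 array in turn, 7 to 8 of the 10 genes were called with LPS in KO and 7 to 8 in WT cells, 2 to 5 between genotypes with LPS, 0 at rest and 1 to 3 for the difference of responses. Over all genes these were 6011 to 8400, 7544 to 10680, 1356 to 3240, 23 to 111 and 756 to 2565. Values that changed sign between genotypes with LPS ran from -0.07 to 0.31 for Slpi, -0.10 to 0.13 for S100a9 and -0.09 to 0.03 for Camp. At rest they ran from -0.05 to 0.06 for Slpi, -0.18 to 0.30 for S100a9, -0.20 to 0.02 for Camp, -0.16 to 0.17 for Ptx3 and -0.05 to 0.31 for Hp. For the difference of responses they ran from -0.07 to 0.31 for Slpi, -0.29 to 0.20 for S100a9, -0.05 to 0.17 for Camp, -0.55 to 0.05 for Lcn2 and -0.07 to 0.62 for Saa3. With LPS-treated KO replicate 1 left out, Ltf passed in KO cells (-0.42), between genotypes with LPS (-0.46) and for the difference of responses (-0.80); without unstimulated WT replicate 2, S100a9 passed with LPS in WT cells (0.53).

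With the replicate number as a block, 7, 8, 4, 0 and 3 of the 10 genes were called in the 5 comparisons. Over all genes, 7509, 9373, 2388, 85 and 1454 were called. Whether the numbers pair the samples is not known. The Hp difference of responses (-0.76) passed only under that block and with spike-in centring (-0.85). A crossed pairing for LPS in KO cells, chosen after seeing the data, called 7 of the 10 and 7725 genes. Signals under the array median limit Ltf, S100a9 and unstimulated Lcn2 and Ptx3. The top of the scale limits Lyz2 and may limit Saa3 with LPS.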

Other observations

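Receptors and binding partners of the 10 proteins were also measured, in a list that includes the enzyme Hmox1. Of 19 such genes, 4 rose and 8 fell with LPS in KO macrophages, and 7 rose and 8 fell in WT macrophages (limma). Over all genes, LPS raised 16.0% and lowered 25.8% in KO and raised 21.3% and lowered 30.9% in WT cells, and the medians of the 19 were -0.15 and -0.01 against 0.00 and 0.04. Fpr2, a formyl peptide receptor that also binds serum amyloid A, had a log2 rise of 5.36 in KO and 5.54 in WT cells. Between KO and WT cells with LPS, 0 of the 19 were higher and 5 were lower, where 8.01% and 5.73% of all genes were, and the median was -0.15 against 0.02. Hmox1, a haem-degrading enzyme and no receptor, averaged 8.14 in KO and 11.26 in WT cells with LPS (8.72-fold lower, adjusted p = 5.72e-07, limma). The haemoglobin scavenger receptor Cd163 was under the median of every array, and a link of Hmox1 to haptoglobin was not tested. Tlr4, the LPS receptor, to which S100a8 also binds, averaged 8.08 in KO and 9.50 in WT cells (2.68-fold lower, adjusted p = 1.19e-05). At rest, 0 of the 19 passed, where 0.500% of all genes did.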
